A study of Mus musculus with 14 samples.

Results

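The genes described here are the 150 protein-coding genes whose RNA peaked most sharply at 6hr in wild-type follicular B cells cultured with BAFF. They were chosen from wt libraries alone. For each protein-coding gene with a mean of at least 10 CPM (read counts scaled to equal library totals of gene counts) in the 2 wt 6hr libraries, log2((6hr + 1)/(0hr + 1)) and log2((6hr + 1)/(27hr + 1)) were computed from the group means in CPM. The smaller of both values was the score, and the 150 highest scores were taken from 8172 eligible genes, out of 39179 gene IDs in the count tables. Levels and changes in wt therefore describe the choice and are given without a test, and so are comparisons of a knockout with wt. Tests are given where only cko and dbko libraries were compared, since the choice did not use their levels. The spread, though, was estimated over all 14 libraries, wt included. Replicates differed less in wt than in cko at 6hr and in dbko, so the p-values rest in part on the tighter wt libraries. Counts that shifted with only the compared groups in the fit are given at the end.

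RNA-seq counts came from splenic follicular B cells of C57BL/6 mice, isolated with a commercial follicular B cell kit and cultured with 50 ng per ml BAFF. The 3 genotypes were wild type (wt), crel-/- (cko), which lacks c-Rel, and relb-/-crel-/- (dbko), which lacks RelB as well. There were 14 libraries in 7 groups of 2: wt at 0hr, 6hr and 27hr, and cko and dbko at 0hr and 6hr. No culture without BAFF and no knockout at 27hr was analysed here. The effect of BAFF and that of the hours in culture cannot be told apart, and the return to low levels after 6hr is known for wt only. Separate mice are not stated for the 2 libraries of a group, so the p-values rest on the variation between libraries, which may be technical.

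Follicular B cells are the resting, recirculating B cells of the spleen. BAFF keeps them alive through its receptor, which activates NF-kB dimers of the classical kind, with RelA or c-Rel, and of the alternative kind, with RelB and p52. These dimers bind kB sites near many genes of the immune response, among them chemokine genes and genes of their own inhibitors, so that induction is often brief. c-Rel is best known in B cells for growth and survival after activation, and RelB for the lasting response to receptors of the BAFF type.

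Because c-Rel and RelB act through kB sites, promoter windows were searched for the kB consensus, together with CACGTG, the core of the E-box bound by regulators of lysosomal and growth genes, and TGANTCA, the AP-1 site. The windows run from 250 bases before to 50 after each start site in RefSeq on GRCm38.p6. They were available for 113 of the 150 genes. A match on either strand counted once per gene, and the 3 motifs were searched separately, so their matches may overlap. The kB consensus occurred in 16 genes (14.16%), against 12.21% of 6609 eligible genes and 9.55% of all 27025 genes with a window. CACGTG occurred in 17 genes (15.04%), against 13.12% and 8.09%, and TGANTCA in 10 genes (8.85%), against 5.39% and 8.97%. The kB share among the 150 genes was thus within 2 percentage points of that of eligible genes, which include them. The windows below are shown because their genes differ in what happened without c-Rel and RelB: Gng4, Il2ra and Nfkbid stayed far below wt in both knockouts, while Csf1 was above wt in dbko. Capitals mark the kB match, and each window is written 5′ to 3′ on the strand of the gene.
Gng4, chr13:13784267-13784306, plus strand: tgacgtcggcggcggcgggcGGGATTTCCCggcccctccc
Il2ra, chr2:11642571-11642620, plus strand: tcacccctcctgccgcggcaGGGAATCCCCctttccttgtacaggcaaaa
Nfkbid, chr7:30422160-30422209, plus strand: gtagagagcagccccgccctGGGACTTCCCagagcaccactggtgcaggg
Nfkbid, chr7:30422205-30422254, plus strand: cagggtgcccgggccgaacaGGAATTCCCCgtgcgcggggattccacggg
Csf1, chr3:107760594-107760643, minus strand: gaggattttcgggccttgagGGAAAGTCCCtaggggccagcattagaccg
The match began 20 bases before the annotated start in Gng4, 201 bases before it in Il2ra, 226 and 181 bases before it in Nfkbid, and 154 bases before it in Csf1. Gng4, Il2ra, Nfkbid and Csf1 are only some of the 16 genes with a kB match. Others behaved otherwise at 6hr: in cko Msrb3 was above wt and Satb1 was level with wt. The following windows hold the CACGTG core, in capitals, in Igf2r, Clcn7 and Dpp7, which encode proteins of the lysosomal pathway and were called higher at 6hr than at 0hr in both knockouts.
Igf2r, chr17:12769729-12769774, minus strand: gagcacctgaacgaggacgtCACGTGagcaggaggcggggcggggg
Clcn7, chr17:25133356-25133390, plus strand: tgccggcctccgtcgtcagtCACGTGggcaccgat
Dpp7, chr2:25356380-25356425, minus strand: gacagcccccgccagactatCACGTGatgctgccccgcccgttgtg
The call for Dpp7 in cko was lost without cko 0hr library 2 or cko 6hr library 1 (adjusted p = 0.173 to 0.24). Igf2r, Clcn7 and Dpp7 are only some of the 17 genes with a CACGTG match, and others moved otherwise. Tbc1d15 and Il1r2 fell in dbko, and Kcnh4 and Nle1 had no call in either knockout. A match is a description of the letters in the window, and binding was not measured.

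Gene counts summed to 10497802 to 11888765 per library. Rel, the gene of c-Rel, was at 567 to 702 CPM in wt at 0hr and 6hr and at 39.3 to 115 CPM in the knockouts. Relb was at 52.1 to 95.4 CPM in dbko and at 148 to 177 CPM in cko. In wt it was at 104 and 107 CPM at 0hr, 155 and 169 at 6hr and 71.6 and 74.3 at 27hr. All 14 tested markers of B cells were at 1 CPM or more in every group, with a summed level of 7920 to 13399 CPM. The 2 libraries of a group differed more in cko at 6hr and in dbko at both times (chi-square per gene 23.74 to 38.25) than in the other groups (2.98 to 5.04). The share of reads outside annotated features was 11.46 and 9.67% in wt at 6hr, 9.76 and 5.21% in cko at 6hr and 8.48 and 6.22% in dbko at 6hr. Its part in the levels below was not tested.

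In wt at 6hr the 150 genes had means of 10.1 to 2090 CPM, with a median of 117 CPM. Their median was 34.1 CPM at 0hr and 42.5 CPM at 27hr. Scores ran from 0.90 to 4.43 on the log2 scale with a median of 1.20, 120 genes scored at least 1 and 19 at least 2. At 27hr 54 genes lay below their own 0hr mean. Just inside the threshold were Gpr137b, Nle1 and Fchsd1 with scores of 0.90, 0.90 and 0.90, and just outside were Cdk5r1, Afap1 and Mapkapk3 with 0.89, 0.89 and 0.89. Choosing on the first wt replicates and on the second gave lists that shared 118 genes. Of the 150 chosen on the first replicates, 149 had a score above 0 in the second, with a median of 1.20. By description, 145 of the 150 genes were called higher at 6hr than at 0hr in wt, where 22.6% of 12630 tested genes and 28.2% of the eligible ones were, and 147 were called lower at 27hr than at 6hr, where 18.2% and 24.6% were. These counts restate the choice.

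The 6hr levels in the knockouts are set here against the wt 6hr level that chose the genes, so that values below wt are favoured by the choice. Relative to the wt 6hr mean, the median gene stood at 84.3% in cko (range 15.8 to 282%) and at 68.7% in dbko (range 9.78 to 504%). The quartiles of these percentages were 65.8 and 111% in cko and 49.2 and 101% in dbko. Both cko libraries lay below both wt libraries for 78 genes (24.2% of all tested genes and 24.8% of the eligible ones) and above both for 42 (27.6% and 30.9%). Both dbko libraries lay below for 94 genes (23.8% and 29%) and above for 23 (40.8% and 37.6%). Together the 150 genes held 3.22 and 3.33% of all gene counts in the wt 6hr libraries, 2.99 and 2.79% in cko at 6hr and 2.03 and 2.42% in dbko at 6hr. At 0hr the range over the 6 libraries was 1.11 to 1.28%, and at 27hr in wt it was 1.18 and 1.20%. In bulk RNA, fewer cells that respond and less RNA per cell cannot be told apart. In edgeR's fit, as a description, cko was called lower than wt at 6hr for 29 of the genes (1.96% of all tested genes and 2.28% of the eligible ones) and higher for 5 (1.58% and 1.96%). Likewise, dbko was called lower for 76 (11.5% and 15.4%) and higher for 11 (15.2% and 12%). The choice used the wt 6hr libraries, so these counts are read no further. It used the wt 0hr libraries as well, where low values raised the score. Values above wt at 0hr are thus favoured by the choice, in the next counts and for single genes below. Before culture, cko was called higher than wt for 12 genes (0.918% of all tested and 1.03% of the eligible) and lower for 0 (0.578% and 0.465%), and dbko higher for 30 (7.1% and 5.19%) and lower for 7 (4.55% and 5.62%). At an unadjusted p under 0.05 the count in either direction at 0hr was 38 for cko, against 13.3% of all tested genes and 13.7% of the eligible ones, and 58 for dbko, against 28.3% and 28.5%.

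**Figure D1:**
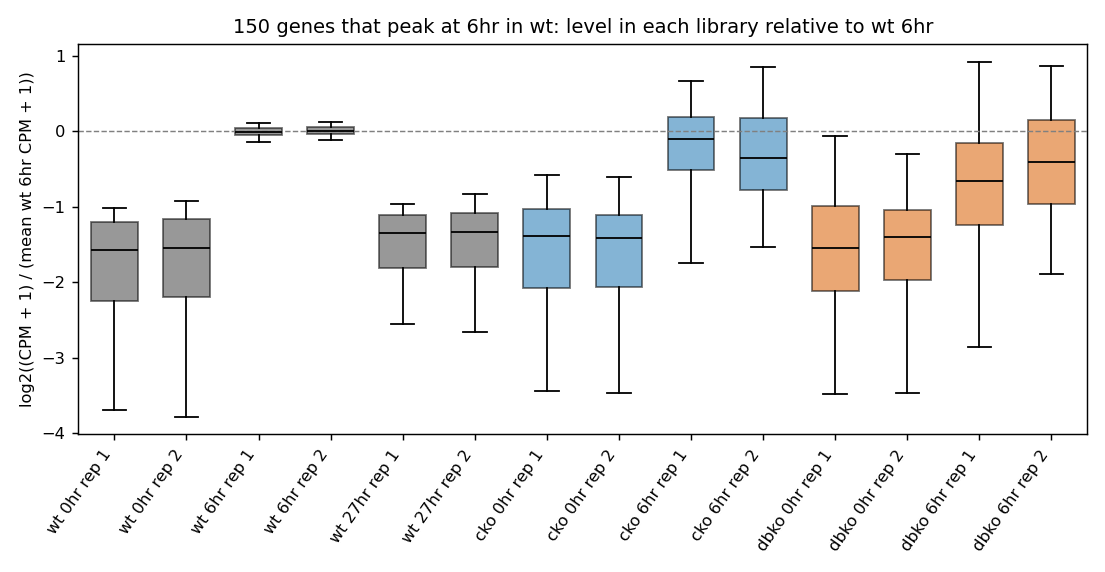
Level of the 150 genes in each of the 14 libraries, as log2((CPM + 1)/(mean wt 6hr CPM + 1)); boxes span the quartiles, black lines are medians and whiskers run from the 5th to the 95th percentile. Medians were -0.105 and -0.352 in the cko 6hr libraries and -0.663 and -0.411 in the dbko 6hr libraries, all between the wt 6hr libraries, which set 0, and every 0hr and 27hr library (-1.335 to -1.572).

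The change over 6hr without c-Rel was tested within cko, with edgeR's quasi-likelihood test and Benjamini-Hochberg adjustment over all 12630 tested genes. The threshold for a call was an adjusted p of 0.05. In cko, 111 of the 150 genes rose, against 21.8% of all tested genes and 27.5% of the eligible ones, and 2 fell, Vsir and Ahr, against 20.1% and 20.9%. The median change was 0.96 on the log2 scale, against 0.05 over all tested genes. Both cko 6hr libraries lay above both cko 0hr libraries for 133 genes, against 50.9% of all tested genes and 59.4% of the eligible ones. Of the 111 rises, 86 were still called whichever of the 4 cko libraries was left out, and of the 2 falls none was.

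In dbko, which lacks RelB too, 83 genes rose, against 19.3% of all tested genes and 22.1% of the eligible ones, and 10 fell, against 20.3% and 21.5%. The median change was 0.84, against 0.03 over all tested genes. For 108 genes both dbko 6hr libraries lay above both dbko 0hr libraries, against 43% of all tested genes and 48.3% of the eligible ones. Of the 83 rises, 72 were still called whichever dbko library was left out, and of the 10 falls 6 were, among them Sec24a, Tbc1d15, Tfrc, Tmem120b and Vsir. With only the 4 dbko libraries in the fit, 54 rises and 2 falls were called, and without the second dbko library of both times 19 falls were.

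Of the 150 genes, 77 rose in both knockouts, against 14.2% of all tested genes and 17.7% of the eligible ones, and 33 rose in cko with no call in dbko, against 7.55% and 9.62%. There were 5 that rose in dbko with no call in cko, among them Plau, Basp1, Osbpl8 and Csf1, against 5.1% and 4.26%, and 24 with no call in either, against 47.5% and 42.2%. The share that rose in dbko alone was thus near the background. Tmem120b was the 1 gene called as a rise in cko and a fall in dbko, Ahr fell in cko and rose in dbko, and Vsir fell in both. The other 8 falls in dbko had no call in cko. Across genes, which are not independent replicates, the cko and dbko changes had a Spearman correlation of 0.79 over the 150 genes and 0.84 over the 8172 eligible genes. The points of each genotype share 4 libraries.

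**Figure D2:**
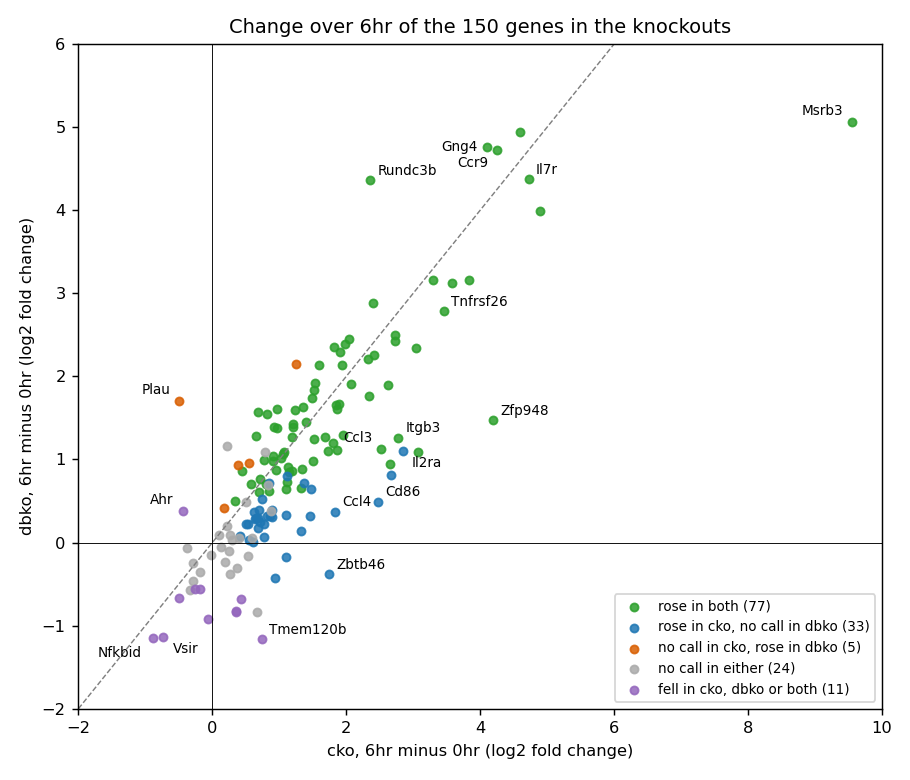
Change from 0hr to 6hr of each of the 150 genes (edgeR log2 fold change) in cko (horizontal axis) and in dbko (vertical axis), coloured by the calls in each; the dashed line marks equal change. The 77 genes that rose in both lie to the upper right, and the 33 that rose in cko with no call in dbko lie below the line. Msrb3 is far to the right because it had 0 and 1 reads in the cko 0hr libraries, so the size of its fitted change is not defined.

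The following groups by role were made after the members were known and serve only to order the description. Their counts of rises and falls stand beside 21.8 and 20.1% of all tested genes in cko (27.5 and 20.9% of the eligible ones) and 19.3 and 20.3% in dbko (22.1 and 21.5%), and groups of few genes allow no reading of small differences from these. Where exons overlap those of another gene, the reads cannot be assigned with certainty, since the counting is not stated to use strand. This touches Litaf (with Snn), Pea15a (Dcaf8), Tmem120b (Rhof), Dnah17 (Pgs1), Ago2 (Chrac1), Idua (Dgkq) and Kdm2b (Rnf34). They are among 23 of the 150 genes that overlap exons of another protein-coding gene. Ms4a4b, Ms4a4c, Ms4a6b, H2-Q7 and Rps12 have close copies elsewhere in the genome, so their values are uncertain.

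At 6hr the chemokine genes Ccl3 and Ccl4 were below 25% of their wt level in cko and dbko. They encode attractants of T cells, monocytes and other leukocytes, and lie side by side (chr11:83647844-83649355, minus strand, and chr11:83662584-83664683, plus strand, GRCm38). Ccl4 was at 27 and 24.8 CPM in wt at 0hr, 334 and 432 at 6hr and 16.5 and 17.7 at 27hr. In cko it went from 20.8 and 22 CPM to 70.9 and 106, and in dbko from 22.8 and 27.7 to 20.4 and 54.5. At 6hr all 4 knockout libraries were thus below both wt libraries, and 1 of the 2 dbko libraries was no higher than at 0hr. Ccl4 rose in cko (log2 fold change 1.83, SE 0.39, adjusted p = 0.00379) and was not called in dbko (log2 fold change 0.37, SE 0.38, adjusted p = 0.474, edgeR). Ccl3 went from 10.6 and 10.6 CPM to 176 and 244 and back to 22.8 and 24.9 in wt. Its 6hr level was 37.7 and 57.5 CPM in cko, from 6.66 and 7.54, and 14.5 and 37.3 CPM in dbko, from 9.97 and 10.9. Ccl3 rose in cko (log2 fold change 2.52, SE 0.41, adjusted p = 0.000761). Its call in dbko (log2 fold change 1.12, SE 0.39, adjusted p = 0.0451) was lost without dbko 0hr library 1, dbko 0hr library 2 or dbko 6hr library 2 (adjusted p = 0.0866 to 0.5). Csf1, the growth factor of macrophages, showed the other order, with 22.2 and 24 CPM in wt at 6hr, 22.5 and 16.7 in cko and 63.3 and 36.8 in dbko. It was higher in dbko than in cko at 6hr (log2 fold change 1.26, SE 0.25, adjusted p = 0.00629), a call lost without cko 6hr library 2 (adjusted p = 0.0618).

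Surface receptors lay above, near or below their wt level in the knockouts, depending on the gene. Of 10 such genes, 7 rose and 1 fell in cko (all tested genes: 21.8 and 20.1%), and 4 rose and 2 fell in dbko (19.3 and 20.3%). Ccr9, the receptor of the gut chemokine CCL25, was at 17.8 and 19.2 CPM in wt at 6hr, against 1.22 and 1.68 at 0hr. It reached 31.8 and 37.3 CPM in cko and 101 and 85.7 CPM in dbko, so every knockout library was above both wt libraries and the dbko libraries were highest. The rise was 4.26 (SE 0.21, adjusted p = 4.41e-08) in cko and 4.72 (SE 0.20, adjusted p = 2.45e-08) in dbko on the log2 scale, and at 6hr dbko was above cko by 1.35 (SE 0.16, adjusted p = 0.000323). Lztfl1, a regulator of ciliary protein traffic that lies inside the annotated span of Ccr9 (chr9:123678439-123784330, plus strand), was at 123 and 119.9 CPM in wt, 173 and 153 in cko and 353 and 264 in dbko at 6hr. It was higher in dbko than in cko too (log2 fold change 0.83, SE 0.15, adjusted p = 0.00424). Il7r, the receptor of interleukin 7, was at 18.7 and 22.6 CPM in wt, 32.5 and 35.2 in cko and 34.8 and 32.4 in dbko at 6hr, with 1.48 CPM or less in every 0hr library. All 4 knockout libraries were above wt, and the difference between the knockouts was not called (log2 fold change -0.10, SE 0.19, adjusted p = 0.787). Tnfrsf26, a member of the TNF receptor family, rose in cko from 22.2 and 22.5 to 287 and 286 CPM (log2 fold change 3.46, SE 0.13, adjusted p = 4.18e-09) and in dbko from 30.1 and 23.3 to 193 and 228 CPM (log2 fold change 2.78, SE 0.12, adjusted p = 3.45e-08). Its wt 6hr level was 180.0 and 182 CPM, below all 4.

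Cd86, the ligand through which activated B cells costimulate T cells, was high in cko and low in dbko. It went from 58.4 and 56.3 CPM to 303 and 328 in wt and was back at 59.5 and 54.7 at 27hr. In cko it went from 69.4 and 61.8 to 409 and 445 CPM, above both wt libraries. In dbko it went from 84.6 and 99.6 to 102 and 196 CPM, below both. Cd86 rose in cko (log2 fold change 2.48, SE 0.25, adjusted p = 1.83e-05), was not called in dbko (log2 fold change 0.49, SE 0.24, adjusted p = 0.12) and was lower in dbko than in cko at 6hr (log2 fold change -1.60, SE 0.24, adjusted p = 0.002, edgeR). Il2ra, the alpha chain of the interleukin 2 receptor, was at 135 and 139.6 CPM in wt at 6hr. It was at 21.6 and 21.9 CPM in cko, the lowest share of wt among the 150 genes (15.8%), and at 48.9 and 42.7 CPM in dbko. The rise from 3.09 and 2.1 CPM at 0hr in cko was called (log2 fold change 2.84, SE 0.57, adjusted p = 0.00297). In dbko 1 of the 0hr libraries was already high (31 and 6.71 CPM), and the change was not called (log2 fold change 1.10, SE 0.45, adjusted p = 0.0749). Vsir, which encodes the checkpoint receptor VISTA, was at 156 and 173 CPM in wt at 6hr, against 47.2 and 53.4 at 0hr. In the knockouts it went the other way, from 56.3 and 49.7 to 28.9 and 45.6 CPM in cko and from 62.8 and 62.4 to 25 and 40.1 CPM in dbko, with no overlap between the times. The fall held in dbko (log2 fold change -1.14, SE 0.23, adjusted p = 0.00211). The call in cko (log2 fold change -0.73, SE 0.23, adjusted p = 0.0228) was lost without cko 0hr library 1, cko 0hr library 2 or cko 6hr library 1 (adjusted p = 0.0553 to 0.182). The interleukin 1 receptor genes Il1r1 and its decoy Il1r2 are neighbours on chromosome 1. Il1r1 was at 10.2 and 10.5 CPM in wt, 4.99 and 5.89 in cko and 6.27 and 6.83 in dbko at 6hr. Il1r2 was at 42.9 and 46.4 CPM in wt, 27 and 31.5 in cko and 26.8 and 22.2 in dbko at 6hr. All knockout 6hr libraries were below wt for both genes. At 0hr all knockout libraries were above wt, which the choice favours. For Il1r2 this was by 1.38 in cko and 2.14 in dbko (log2). Il1r1 had 2 and 8 reads in wt at 0hr. Il1r1 rose in cko (log2 fold change 1.47, SE 0.33, adjusted p = 0.0036, edgeR) and was not called in dbko (0.64, SE 0.31, adjusted p = 0.112). Il1r2 was not called in cko (0.42, SE 0.20, adjusted p = 0.117) and fell in dbko (-0.68, SE 0.20, adjusted p = 0.0169). That fall was lost under 4 of 11 alternatives.

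**Figure D3:**
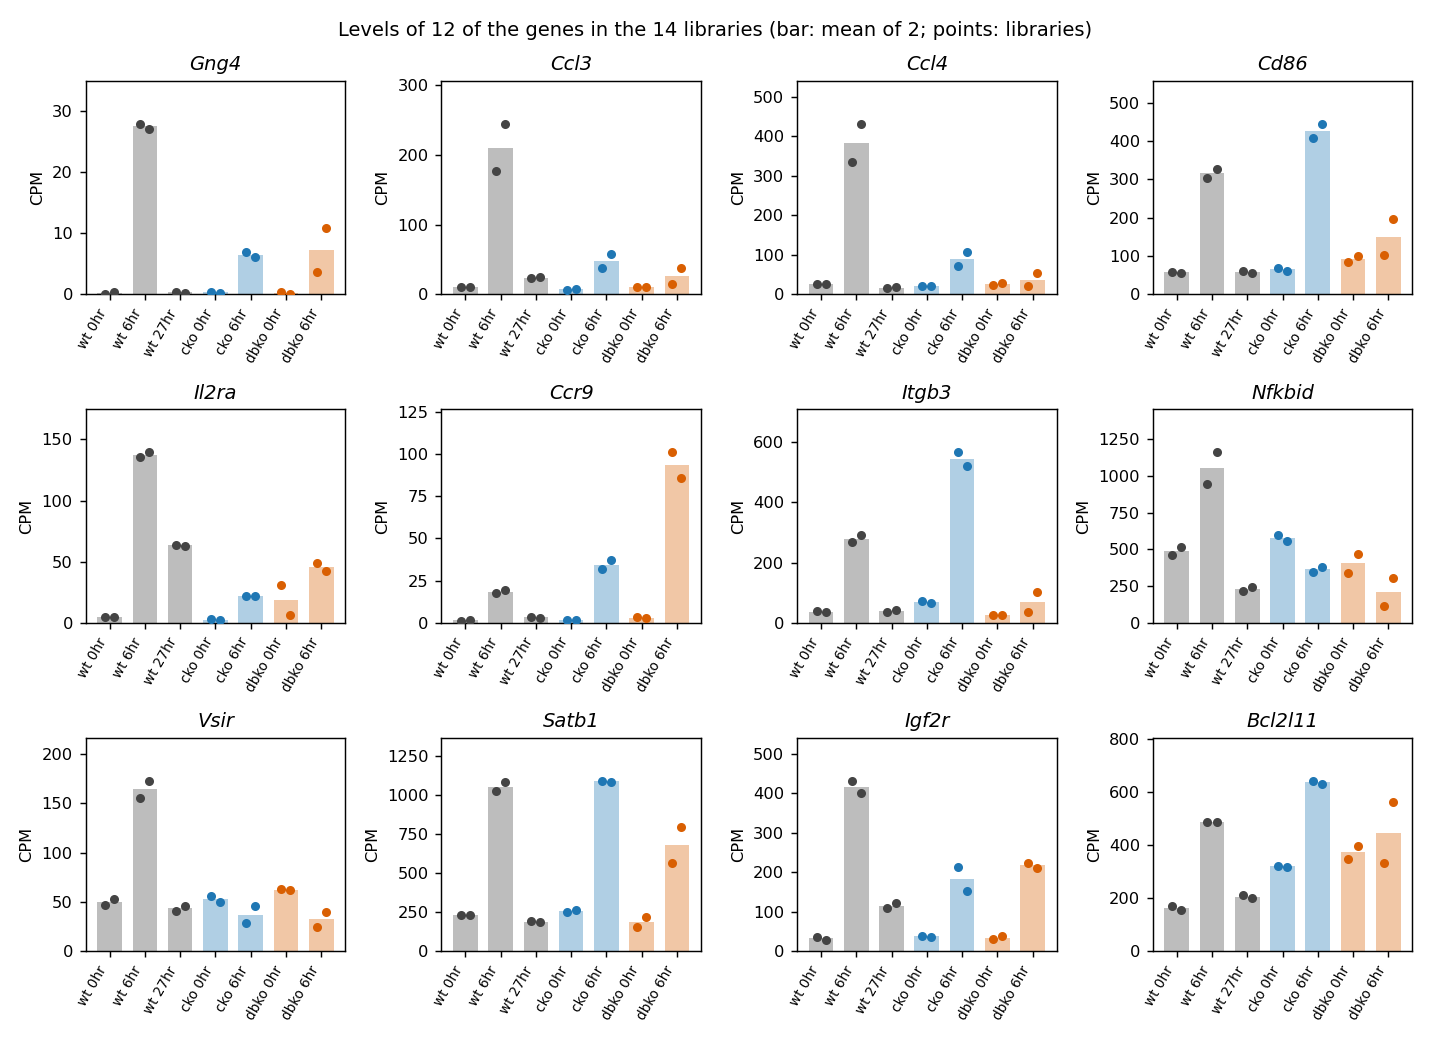
CPM of 12 of the genes in the 14 libraries (points), with the mean of each group of 2 (bars); each panel has its own axis starting at 0. Gng4, Ccl3, Ccl4, Il2ra, Nfkbid, Vsir and Igf2r are lower in both knockouts than in wt at 6hr, Ccr9 is higher in both, and Cd86 and Itgb3 are higher in cko and lower in dbko; Satb1 matches wt in cko, and Bcl2l11 starts higher in both knockouts.

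Nfkbid and Nfkbiz encode nuclear IkB proteins, which modulate NF-kB dimers on DNA and are themselves induced by NF-kB. Nfkbid went from 464 and 519 CPM to 943 and 1161 in wt. It went from 597 and 559 to 345 and 381 CPM in cko, and from 341 and 469.5 to 115 and 303 CPM in dbko. In both knockouts each 6hr library was thus below each 0hr library, the opposite of wt. The change was -0.89 (SE 0.36, adjusted p = 0.0675) in cko, short of a call, and -1.15 (SE 0.36, adjusted p = 0.0267) in dbko, where the call was lost without dbko 0hr library 2 (adjusted p = 0.125). Nfkbiz was at 216 and 273 CPM in wt at 6hr and at 98.1 and 85.7 in cko and 55.2 and 97.5 in dbko. Its 0hr libraries were at 91.8 and 97.8 CPM in wt, 113 and 109.8 in cko and 94.7 and 117 in dbko. Its change was -0.50 (SE 0.24, adjusted p = 0.116) in cko and -0.67 (SE 0.24, adjusted p = 0.0452) in dbko, where the call was lost without dbko 0hr library 2 or dbko 6hr library 1 (adjusted p = 0.237 to 0.24). In a wider list of 25 NF-kB subunits and regulators, which holds both genes, 1 rose and 8 fell in cko over 6hr, and 3 rose and 15 fell in dbko, beside 21.8 and 20.1% of all tested genes in cko and 19.3 and 20.3% in dbko. The median change of that list was -0.31 in cko and -0.50 in dbko, against 0.05 and 0.03 over all tested genes.

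Intracellular signalling genes came close to their wt level in cko and less so in dbko. Of 18, 17 rose in cko (all tested genes: 21.8%), and 12 rose and 1 fell in dbko (19.3 and 20.3%), and their median 6hr level was 98.7% of wt in cko and 74.7% in dbko. Gng4, a gamma subunit of G proteins and the gene with the highest score (chr13:13784059-13827896, plus strand), was at 28 and 27.2 CPM in wt at 6hr and at 0.381 CPM or less in the other wt libraries. In the knockouts it was at 0.375 CPM or less at 0hr. At 6hr it was at 6.9 and 6.14 CPM in cko and 3.67 and 10.9 CPM in dbko, so all 4 libraries stayed under 50% of wt. It rose in both (adjusted p = 0.000516 in cko and 0.000277 in dbko, edgeR), with too few reads at 0hr to size the change. Pde7b and Pde3b encode phosphodiesterases, which break down cyclic nucleotides. Pde7b was at 12.5 and 11.8 CPM in wt, 18.2 and 20.3 in cko and 5.65 and 11.1 in dbko at 6hr, with 0.562 CPM or less in every 0hr library. Pde3b rose from 55 and 64.1 to 538 and 605 CPM in cko (log2 fold change 3.04, SE 0.23, adjusted p = 1.64e-06) and from 42.8 and 53 to 208 and 349 CPM in dbko (log2 fold change 2.34, SE 0.22, adjusted p = 1.11e-05), with 350.0 and 357 CPM in wt. For both genes cko was above wt and above dbko without overlap. Fyn, a Src family kinase, was at 281 and 304 CPM in wt, 305 and 289.7 in cko and 176 and 271 in dbko at 6hr, and rose in cko (log2 fold change 1.86, SE 0.17, adjusted p = 5.7e-06) and in dbko (log2 fold change 1.60, SE 0.17, adjusted p = 1.96e-05). Cyth1, a regulator of integrin adhesion, was at 745 and 817 CPM in wt, 921 and 934 in cko and 317 and 538 in dbko at 6hr. It rose in cko (log2 fold change 1.33, SE 0.20, adjusted p = 0.000194) and was not called in dbko (log2 fold change 0.14, SE 0.19, adjusted p = 0.594). Prkcd, a protein kinase C isoform needed for B cell tolerance, was highest in dbko, with 689 and 658 CPM in wt, 757 and 637 in cko and 949.7 and 954 in dbko at 6hr, and both dbko libraries were above all others.

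Of 7 adhesion and matrix genes, 5 rose in cko (all tested genes: 21.8%) and 6 in dbko (19.3%), with 0 falls. Itgb3 encodes the integrin beta 3 chain, and Itgav the alpha V chain that pairs with it. Itgb3 was at 269 and 290.2 CPM in wt at 6hr, 567 and 521 in cko and 34.2 and 101 in dbko, so the 3 genotypes did not overlap. At 0hr it was at 38.4 and 36.2 CPM in wt, 71.6 and 64.6 in cko and 25.3 and 24.3 in dbko, in the same order. Itgb3 rose in cko (log2 fold change 2.77, SE 0.38, adjusted p = 0.000272) and was lower in dbko than in cko at 6hr (log2 fold change -3.08, SE 0.38, adjusted p = 0.00117). Its rise in dbko (log2 fold change 1.26, SE 0.38, adjusted p = 0.0241) was lost without dbko 0hr library 1, dbko 0hr library 2 or dbko 6hr library 2 (adjusted p = 0.0653 to 0.185). Itgav had no such gap, with 186 and 182 CPM in wt, 161 and 127 in cko and 111 and 128 in dbko at 6hr. It rose by 1.39 (SE 0.17, adjusted p = 3.89e-05) in cko and 1.45 (SE 0.17, adjusted p = 3.24e-05) in dbko. Lamc1, a laminin chain, was at 121 and 118 CPM in wt, 143 and 119.6 in cko and 84.6 and 87.1 in dbko, with dbko below cko (log2 fold change -0.69, SE 0.11, adjusted p = 0.002). Plau, the urokinase protease, was at 25.2 and 31.8 CPM in wt, 5.08 and 5.89 in cko and 22.2 and 15.6 in dbko. Here cko was lowest, and dbko was above it (log2 fold change 1.69, SE 0.29, adjusted p = 0.00333) after a rise from 6.09 and 4.06 CPM (log2 fold change 1.70, SE 0.29, adjusted p = 0.00064).

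DNA-binding transcription factors had a median 6hr level of 101% of wt in cko and 71.4% in dbko. Of 11 genes, 10 rose and 1 fell in cko (all tested genes: 21.8 and 20.1%), and 7 rose in dbko (19.3%). Satb1, an organiser of chromatin in lymphocytes, was at 1024 and 1079.9 CPM in wt at 6hr, 1090.2 and 1081 in cko and 566 and 795 in dbko. Smad3, which carries TGF-beta signals to the nucleus, was at 326 and 370.2 CPM in wt, 355 and 343 in cko and 204 and 293 in dbko. For both genes cko was level with wt and both dbko libraries were below. Satb1 rose by 1.85 (SE 0.19, adjusted p = 1.49e-05) in cko and 1.66 (SE 0.19, adjusted p = 3.57e-05) in dbko, and Smad3 by 2.41 (SE 0.16, adjusted p = 3.73e-07) and 2.25 (SE 0.16, adjusted p = 7.07e-07). Zbtb46, a factor best known from dendritic cells, was at 53.5 and 52.1 CPM in wt, 26 and 26.3 in cko and 4.39 and 7.93 in dbko at 6hr. It rose in cko from 7.41 and 5.96 CPM (log2 fold change 1.75, SE 0.25, adjusted p = 0.00015). In dbko, which started at 8.86 and 5.29 CPM, the change was not called (log2 fold change -0.38, SE 0.26, adjusted p = 0.273), and dbko lay below cko at 6hr (log2 fold change -2.16, SE 0.25, adjusted p = 0.000323). The summed level of the 9 dendritic cell markers, of which Zbtb46 is 1, was 87.6 to 87.9 CPM in wt, 55.2 to 63.5 in cko and 49.8 to 60.2 in dbko at 6hr. Zbtb46 was the largest part of this sum in wt, so the sum is not separate from it. Other markers on the list did not share its order. At 6hr Itgax, Xcr1 and Clec9a were highest in dbko, and Flt3 was lower in dbko than in wt. Ahr, the ligand-activated aryl hydrocarbon receptor, was at 137 and 136 CPM in wt, 103 and 90.7 in cko and 146 and 173 in dbko at 6hr. At 0hr it was at 60 and 65.7 CPM in wt, 109 and 116 in cko and 107 and 107 in dbko. Both knockouts thus began above wt. The fall in cko (log2 fold change -0.44, SE 0.12, adjusted p = 0.0123) was lost without cko 0hr library 2 or cko 6hr library 2 (adjusted p = 0.0827 to 0.0881), and the rise in dbko (log2 fold change 0.38, SE 0.12, adjusted p = 0.0276) was lost without dbko 0hr library 1 or dbko 6hr library 2 (adjusted p = 0.122 to 0.188). At 6hr dbko was above cko (log2 fold change 0.64, SE 0.12, adjusted p = 0.00568). Myb, a regulator of early lymphocytes, was at 91.8 and 82.1 CPM in wt, 70.1 and 57.5 in cko and 91.5 and 102 in dbko, and rose by 1.24 (SE 0.13, adjusted p = 1.59e-05) in cko and 1.59 (SE 0.13, adjusted p = 2.21e-06) in dbko. Stat4, which relays interleukin 12 signals, was at 217 and 225 CPM in wt, 285 and 289 in cko and 72.2 and 149 in dbko, and rose in cko (log2 fold change 1.37, SE 0.32, adjusted p = 0.00602) with no call in dbko (log2 fold change 0.71, SE 0.32, adjusted p = 0.101).

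**Figure D4:**
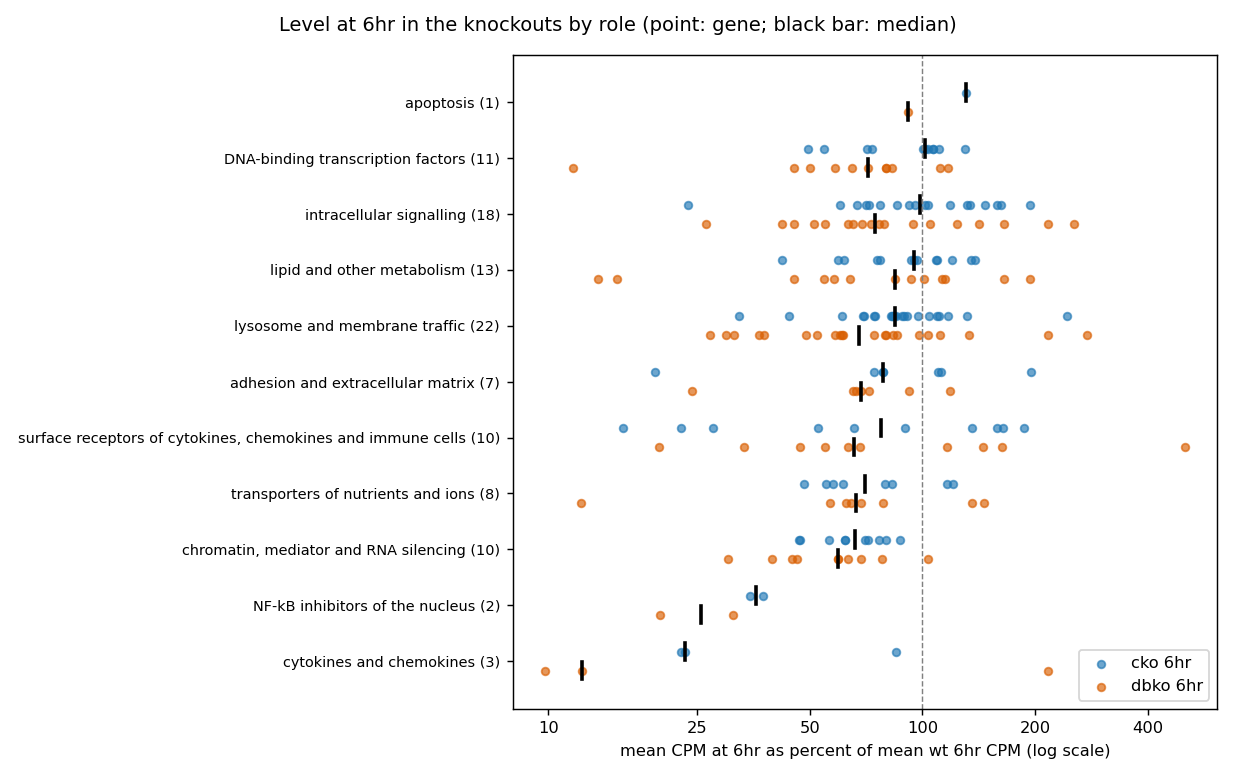
Mean CPM at 6hr in cko (blue) and dbko (orange) as percent of the wt 6hr mean, on a log axis, for the 105 genes placed in a role; points are genes, black bars are medians and numbers in brackets are genes per role. The cko medians run from 23.2% for cytokines and chemokines to 101% for transcription factors, with the single apoptosis gene at 130.5%, and the dbko median is below the cko median in every role.

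Of 10 genes of chromatin, mediator and RNA silencing, 6 rose in cko (all tested genes: 21.8%), and 3 rose and 1 fell in dbko, near the shares of all tested genes (19.3 and 20.3%). Their median 6hr level was 66.0% of wt in cko and 59.4% in dbko, and in cko all 10 means were below wt. Ago2, the Argonaute protein that cuts RNA targets, was at 1314 and 1309.6 CPM in wt at 6hr, 836 and 637 in cko and 356 and 437 in dbko, an order without overlap. It rose in cko (log2 fold change 1.09, SE 0.15, adjusted p = 0.000133), was not called in dbko (log2 fold change 0.33, SE 0.15, adjusted p = 0.104) and was lower in dbko than in cko (log2 fold change -0.98, SE 0.15, adjusted p = 0.00204). Dot1l, the histone H3 lysine methyltransferase linked to transcribed genes, was at 382 and 374 CPM in wt, 192 and 163 in cko and 147 and 193 in dbko. Its change over 6hr was -0.02 (SE 0.15, adjusted p = 0.94) in cko and -0.15 (SE 0.15, adjusted p = 0.438) in dbko, neither of them called. Tet2, which oxidises methylcytosine, was at 180.3 and 142 CPM in wt, 92.4 and 58.6 in cko and 71.6 and 56 in dbko. Kdm2b, a CpG island binding demethylase, rose in both knockouts, by 1.19 (SE 0.17, adjusted p = 0.000169) in cko and 1.27 (SE 0.17, adjusted p = 0.000118) in dbko. Its 6hr level was 292 and 309.8 CPM in wt, 187 and 186 in cko and 159.6 and 254 in dbko, again below wt in all 4 libraries.

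The largest role group, 22 genes of lysosomes and membrane traffic, had 17 rises in cko (all tested genes: 21.8%), and 14 rises and 2 falls in dbko (19.3 and 20.3%). Its median 6hr level was 84.3% of wt in cko and 67.8% in dbko. Igf2r, the receptor that delivers enzymes to lysosomes, was at 433 and 401 CPM in wt at 6hr, 214 and 152 in cko and 223 and 212 in dbko. It rose by 2.04 (SE 0.18, adjusted p = 3.88e-06) in cko and 2.45 (SE 0.18, adjusted p = 1.11e-06) in dbko, and all 4 knockout libraries stayed below both wt libraries. Mreg, a protein of organelle transport, was at 286 and 314 CPM in wt, 89.2 and 104 in cko and 94.3 and 125 in dbko. It rose in dbko (log2 fold change 1.28, SE 0.16, adjusted p = 6.01e-05), and its rise in cko (log2 fold change 0.65, SE 0.16, adjusted p = 0.00554) was lost without cko 0hr library 2 (adjusted p = 0.0527). Laptm5, a lysosomal protein that lowers B cell receptor levels, was at 2019.8 and 2159.6 CPM in wt, 2312 and 2583 in cko and 1841 and 2471 in dbko, and rose in both knockouts. Clcn7, a lysosomal chloride transporter, rose by 0.95 (SE 0.14, adjusted p = 0.000222) in cko and 0.87 (SE 0.14, adjusted p = 0.000438) in dbko, and the enzyme gene Idua by 0.91 (SE 0.16, adjusted p = 0.00076) and 1.04 (SE 0.16, adjusted p = 0.000348). Rab GTPases are the switches of vesicle traffic, and their regulators did not move as 1 group. Hps4, part of a Rab exchange factor, was at 78.3 and 80.2 CPM in wt, 90.4 and 82.8 in cko and 95.7 and 115 in dbko at 6hr, highest in dbko. Dennd4a, an activator of Rab GTPases, was at 1448 and 1365 CPM in wt, 1105 and 861 in cko and 337 and 424 in dbko, from 389 and 358 CPM at 0hr. It rose in cko (log2 fold change 1.10, SE 0.14, adjusted p = 8.39e-05) and was lower in dbko than in cko (log2 fold change -1.45, SE 0.15, adjusted p = 0.000111). Tbc1d15, which inactivates Rab GTPases, was at 274 and 308 CPM in wt and 301 and 345 in cko, and fell in dbko from 281 and 273 to 150.5 and 207 CPM (log2 fold change -0.83, SE 0.14, adjusted p = 0.000661). This call was lost with only the dbko libraries in the fit (adjusted p = 0.0605, edgeR). Tbc1d30, of the same family, was at 36 and 30.2 CPM in wt, 30.9 and 28.3 in cko and 7.89 and 11.9 in dbko, with dbko below cko (log2 fold change -1.66, SE 0.24, adjusted p = 0.0013). Litaf, an endosomal protein, was at 318 and 378 CPM in wt, 243 and 274 in cko and 89 and 129.6 in dbko, with dbko below cko as well (log2 fold change -1.32, SE 0.22, adjusted p = 0.00294).

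Among 13 genes of lipid and other metabolism, 9 rose in cko (all tested genes: 21.8%) and 9 in dbko (19.3%). Chst10, a sulfotransferase of cell surface glycans (chr1:38863867-38898161, minus strand), was at 257 and 242 CPM in wt at 6hr, 226 and 238 in cko and 39.9 and 36.3 in dbko. At 0hr it was at 41 and 49.4 CPM in wt, 80.1 and 79.5 in cko and 23.3 and 18.6 in dbko. Chst10 was lower in dbko than in cko at 0hr (log2 fold change -2.04, SE 0.12, adjusted p = 2.58e-06) and at 6hr (log2 fold change -2.69, SE 0.12, adjusted p = 7.58e-08), and it rose within each, by 1.32 (SE 0.11, adjusted p = 2.69e-06) in cko and 0.66 (SE 0.12, adjusted p = 0.000853) in dbko. The call in dbko was lost with only the dbko libraries in the fit (adjusted p = 0.0907, edgeR). Gad1, the enzyme that makes GABA, was at 27.5 and 31 CPM in wt, 37.6 and 32.6 in cko and 1.97 and 5.99 in dbko at 6hr, the largest deficit of dbko against cko among the 150 genes (log2 fold change -3.21, SE 0.36, adjusted p = 0.000335). Other enzymes passed their wt level in dbko. Hpgds, the prostaglandin D synthase of blood cells, was at 113 and 93.3 CPM in wt, 162 and 124 in cko and 196 and 146 in dbko, and rose by 2.40 (SE 0.16, adjusted p = 5.19e-07) and 2.88 (SE 0.17, adjusted p = 2.14e-07). Gnpda1, which returns glucosamine phosphate to glycolysis, was at 59.3 and 58 CPM in wt, 76.7 and 81.1 in cko and 119.6 and 107 in dbko. Sgpl1, the sphingosine phosphate lyase, was at 430.4 and 458 CPM in wt, 423 and 434 in cko and 377 and 448 in dbko, and Kdsr, of sphingolipid synthesis, was at 45.4 and 46.4 CPM in wt, 55 and 44.8 in cko and 45.4 and 47.6 in dbko. The difference between dbko and cko at 6hr was not called for either (log2 fold change -0.14, SE 0.12, adjusted p = 0.511 for Sgpl1, and log2 fold change -0.19, SE 0.13, adjusted p = 0.387 for Kdsr).

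Of 8 transporter genes, 4 rose in cko (all tested genes: 21.8%), and 3 rose and 1 fell in dbko (19.3 and 20.3%), too few to read against these shares. Slc7a1, the importer of arginine and lysine, was at 375 and 388 CPM in wt at 6hr, 225 and 216 in cko and 194 and 239.9 in dbko. It rose in cko (log2 fold change 0.77, SE 0.15, adjusted p = 0.00147) and was not called in dbko (log2 fold change 0.22, SE 0.15, adjusted p = 0.27). Tfrc, the transferrin receptor for iron uptake, was at 434 and 482 CPM in wt, 287 and 274 in cko and 319 and 272 in dbko at 6hr. In dbko this was a fall from 561 and 413 CPM (log2 fold change -0.92, SE 0.13, adjusted p = 0.000157), against 251 and 254 CPM in cko and 169 and 177 in wt at 0hr. The 10 tested markers of erythroid cells, which use Tfrc heavily, summed to 728 to 1598 CPM in dbko at 0hr and 130 to 294 at 6hr, against 9.26 to 89.2 CPM in the wt and cko groups. None of them was at 0 in both libraries of a dbko group, and their part in the Tfrc values was not tested. Slc15a2, a peptide transporter next to Cd86, differed most between replicates, with 3.97 and 43.2 CPM in dbko at 0hr and 4.21 and 38.1 at 6hr, against 174 and 172 in wt at 6hr.

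Bcl2l11, which encodes the death protein Bim, was at 169 and 156 CPM in wt at 0hr, 487 and 488 at 6hr and 211 and 201 at 27hr. The knockouts began above wt, at 322 and 319 CPM in cko and 349 and 396 in dbko, and at 6hr were at 643 and 629 CPM in cko and 331 and 563 in dbko. The rise in cko (log2 fold change 0.77, SE 0.20, adjusted p = 0.00746) was lost without cko 0hr library 1 or cko 0hr library 2 (adjusted p = 0.0503 to 0.0521), and the change in dbko was not called (log2 fold change 0.07, SE 0.20, adjusted p = 0.817). Of 15 tested pro-apoptotic genes in all, 4 rose and 2 fell in cko over 6hr, and 3 rose and 3 fell in dbko, near the shares of all tested genes (21.8 and 20.1% of all tested genes in cko and 19.3 and 20.3% in dbko). Among the 45 genes placed in no role, 33 rose in cko (all tested genes: 21.8%), and 23 rose and 1 fell in dbko (19.3 and 20.3%). Msrb3, a methionine sulfoxide reductase, was at 17.8 and 17.6 CPM in wt at 6hr, 47.9 and 48.4 in cko and 4.57 and 20.2 in dbko, and at 0.353 CPM or less in every 0hr library. Cables1, which links cyclin-dependent kinases to other proteins, was at 30.1 and 27.3 CPM in wt, 74.4 and 88 in cko and 13.4 and 52 in dbko. Both genes were higher in cko than in wt and uneven between the dbko libraries. Zfp948, a zinc finger protein, was at 20.9 and 17.5 CPM in wt, 25.7 and 15.2 in cko and 11.7 and 10.8 in dbko at 6hr. At 0hr it was at 1.7 and 1.24 CPM in wt, 0.75 and 1.14 in cko and 4.25 and 2.82 in dbko. Rundc3b was at 9.29 and 10.8 CPM in wt, 16.3 and 18.8 in cko and 9.05 and 16.9 in dbko at 6hr, and Fam221a was at 10.4 and 10.6 CPM in wt, 8.17 and 7.49 in cko and 18.8 and 13.6 in dbko. Vat1, a vesicle and mitochondrial membrane protein, rose in both knockouts, by 2.73 (SE 0.16, adjusted p = 1.68e-07) in cko and 2.42 (SE 0.16, adjusted p = 4.03e-07) in dbko, with 139 and 145 CPM in wt, 132 and 171 in cko and 160.2 and 158 in dbko at 6hr. Tmem120b was at 19.3 and 20.4 CPM in wt at 6hr, 8.44 and 6.22 in cko and 3.94 and 5.06 in dbko, from 9.6 and 8.03 in dbko at 0hr. Its fall in dbko (log2 fold change -1.16, SE 0.22, adjusted p = 0.00112) held whichever dbko library was left out. The fall was lost with only the dbko libraries in the fit (adjusted p = 0.0849, edgeR). Its rise in cko was called (log2 fold change 0.74, SE 0.22, adjusted p = 0.0184). That call was lost without cko 0hr library 1, cko 0hr library 2 or cko 6hr library 1 (adjusted p = 0.0763 to 0.151). The rise was lost as well with DESeq2 and without the filter on low counts.

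The added loss of RelB was tested at 6hr as dbko against cko. Lower in dbko were 42 of the 150 genes, against 4.66% of all tested genes and 6.5% of the eligible ones, and higher were 10, against 8.77% and 4.63%. The median difference was -0.33 on the log2 scale, against -0.01 over all tested genes. Of the lower genes, 18 held whichever of the 4 libraries was left out, among them Ago2, Cd86, Chst10, Cmip, Cyth1, Dennd4a, Dmxl1, E330009J07Rik, Gad1, Itgb3, Lamc1, Litaf, Lrrc8d, Pde3b, Tbc1d15, Tbc1d30 and Zbtb46. Of the higher genes, Ahr, Ccr9, Lztfl1 and Plau held. The number of lower genes was 19 without cko 6hr library 1, 26 without dbko 6hr library 1 and 64 without dbko 6hr library 2, and the number of higher genes was 4 without cko 6hr library 2. With only these 2 groups in the fit, 8 were lower and 3 higher. Markers of other cells moved with the comparison: 13 of 15 tested macrophage and monocyte markers and all 10 tested erythroid markers were higher in dbko. The macrophage markers summed to 372 to 731 CPM in dbko at 6hr, 104 to 119 in cko and 93.7 to 107 in wt, with none of the 16 at 0 in both dbko libraries. Much of each sum was Hmox1, at 405 and 263 CPM in dbko, 73.4 and 87.5 in cko and 64.6 and 51.5 in wt. The part of the markers in these counts was not tested, and none of the 150 genes is on either list.

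Before culture, dbko and cko differed at fewer of the 150 genes. At 0hr 10 were higher in dbko, against 6.63% of all tested genes and 3.55% of the eligible ones, and 8 were lower, against 2.39% and 3.08%, with a median difference of -0.08, against 0.01 over all tested genes. Calls that held whichever library was left out were Ankrd33b and Tfrc among the higher and Chst10, Fam167a and Pea15a among the lower. Markers of other cells differed at 0hr too. Erythroid markers summed to 728 to 1598 CPM in dbko, 84.6 to 89.2 in cko and 22.4 to 27.9 in wt. Macrophage and monocyte markers summed to 174 to 316 CPM in dbko, 47.3 to 53.7 in cko and 228 to 235 in wt. Dendritic cell markers summed to 109 to 127 CPM in dbko, 59.1 to 62.8 in cko and 55.9 to 56.4 in wt. Neutrophil markers summed to 4.85 to 21.2 CPM in dbko and 0.175 to 0.562 in cko. NK cell markers were lower in dbko, at 10.3 to 10.8 CPM against 21.4 to 24.0 in cko. The part of these markers in the calls was not tested. Ankrd33b, an ankyrin repeat protein, was at 84.7 and 53.5 CPM in dbko, 20.3 and 20.7 in cko and 13 and 14.6 in wt at 0hr. At 6hr it was at 115 and 187 CPM in dbko, 155 and 145 in cko and 176 and 184 in wt. It began higher and ended in the same range in dbko. Fam167a was at 77 and 111 CPM in dbko, 198 and 201 in cko and 119 and 122 in wt at 0hr. Pea15a, an adaptor that holds ERK in the cytoplasm, was at 61.5 and 61.8 CPM in dbko, 96.9 and 94.6 in cko and 34.4 and 38.1 in wt at 0hr, so both knockouts were above wt. The counts were 2 to 18 higher and 3 to 23 lower when single libraries were left out: without cko 0hr library 1 there were 2 and 4, without cko 0hr library 2 there were 2 and 3, without dbko 0hr library 1 there were 4 and 4, and without dbko 0hr library 2 there were 18 and 23.

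The difference between the 6hr changes of dbko and cko was called for 11 genes. It was lower in dbko for 9, against 0.348% of all tested genes and 0.441% of the eligible ones, and higher for 2, Ahr and Plau, against 0.586% and 0.673%. The median difference was -0.27, against -0.02 over all tested genes. With the replicate number, which marks the sequencing lane, as a block, 1 higher gene was called, since Ahr was lost (adjusted p = 0.0582, edgeR). None of the 11 calls held when each of the 8 libraries was left out in turn, and single omissions gave 0 to 32 lower and 0 to 5 higher genes. The numbers without cko 0hr library 1, cko 0hr library 2, cko 6hr library 1 and cko 6hr library 2 were 0, 0, 1 and 4 lower and 0 higher each. They were 5 lower and 1 higher without dbko 0hr library 1, 18 and 5 without dbko 0hr library 2, and 32 and 4 without dbko 6hr library 2.

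The 150 genes were longer than the eligible genes, with a median span of 37.9 kb (quartiles 22.0 and 91.4) against 24.9 kb (11.5 and 52.9). Their exons covered a median of 5.58 kb against 4.87 kb, in 13 against 10 blocks. These are descriptions of GENCODE M21 gene models. There were 11 pairs of members within 200 kb of each other, among them Ccl3 and Ccl4, Il1r1 and Il1r2, Ccr9 and Lztfl1, Cd86 and Slc15a2, Alkbh6 and Nfkbid, and Dnah17 and Cyth1.

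Wider lists of the same pathways, which hold some of the 150 genes, moved in both directions over 6hr, beside rises and falls of 21.8 and 20.1% of all tested genes in cko and 19.3 and 20.3% in dbko. Of 40 tested NF-kB targets, 5 of them among the 150 (Ccl3, Ccl4, Cd86, Il2ra and Myb), 7 rose and 15 fell in cko over 6hr, and 4 rose and 14 fell in dbko. Of 31 tested chemokines and cytokines, 7 rose and 8 fell in cko, and 4 rose and 8 fell in dbko. Of 37 receptors of cytokines and chemokines, 11 rose and 11 fell in cko, and 10 rose and 13 fell in dbko. Of 21 costimulatory and activation molecules, 3 rose and 11 fell in cko, and 0 rose and 10 fell in dbko. Median changes of these 4 lists were -0.51, -0.25, -0.09 and -0.55 in cko, against 0.05 over all tested genes, and -0.50, -0.04, 0.12 and -0.43 in dbko, against 0.03.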

How the data were processed

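Whole-number read counts per gene ID were deposited by the authors, one table per library. The reads were made from poly-dT primed RNA per the labels' protocols. CASAVA 1.8.2 is named in the submitters' processing notes. Not given in the sources used here: aligner, counter, genome build and strand setting. Rows that name no gene stayed out of library sizes and tests: of all counts in a table, 5.21 to 11.46% were in no annotated feature, 38.8 to 49.9% came from alignments that were not unique and 0.412 to 0.486% were ambiguous. Gene IDs were matched to GENCODE M21 (37693 of 39179, of which 21303 protein-coding).

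The counts of all 14 libraries were fitted together by group with edgeR 4.0.16 in R 4.3.3, using TMM scaling, its default filter on low counts (12630 genes tested, all 150 members among them) and the quasi-likelihood test, with Benjamini-Hochberg adjustment over all tested genes and a threshold of 0.05. The fit had 7 residual degrees of freedom. CPM are counts scaled to equal library totals of gene counts. Standard errors are on the log2 scale. Tested on simulated data with these depths, the fit recovered 85 of 100 genes changed 2-fold in cko over 6hr, and 84 of 100 in dbko. It also called 8 and 11 genes that were not changed. The simulation gave every group the same spread. It therefore does not show the recovery in cko at 6hr and in dbko, whose real libraries differed more. The members and gene lists were chosen with earlier results of these data known. Genes were named by score, by the largest called rises and falls, by list and at the threshold. Further members were named after their values were seen, to describe each role, and some members are not reported here by name.

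The replicate number marks the sequencing lane (7 or 8) in the labels. Deviations of same-numbered libraries correlated over 0.1 in 4 of 21 pairs of groups (range -0.17 to 0.483), so the fit had no replicate block. Alternatives were DESeq2 1.42.0, edgeR with the size factors of DESeq2, all genes without the filter, the replicate block, only the groups compared, and each library left out in turn. Leaving out a dbko replicate number at both times was chosen after seeing the data. Other tools were limma 3.58.1, Python 3.11.15, NumPy 2.4.6, pandas 2.3.3 and Matplotlib 3.10.9.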

Additional observations from a re-analysis of the deposited data

Results flagged for a closer look

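For 11 of the 150 genes the change over 6hr differed between dbko and cko by the test of that difference itself (edgeR quasi-likelihood test, Benjamini-Hochberg adjusted over all tested genes). Differences are given on the log2 scale as the dbko change minus the cko change, 10 of them are given here, and none of these calls held when each of the 8 libraries was left out in turn. Zfp948, a zinc finger gene, differed by -2.72 (SE 0.45, adjusted p = 0.0135), with a change of 4.19 in cko and 1.47 in dbko. The difference was -2.13 (SE 0.36, adjusted p = 0.0177) for Zbtb46, a zinc finger transcription factor, which changed by 1.75 in cko and -0.38 in dbko. Cd86, the costimulatory ligand, differed by -1.99 (SE 0.34, adjusted p = 0.0204), with a change of 2.48 in cko and 0.49 in dbko. The difference was -1.90 (SE 0.31, adjusted p = 0.0139) for Tmem120b, a membrane protein whose exons overlap those of Rhof, which changed by 0.74 in cko and -1.16 in dbko. Ankrd33b, an ankyrin repeat gene, differed by -1.71 (SE 0.31, adjusted p = 0.025), with a change of 2.65 in cko and 0.94 in dbko. The difference was -1.27 (SE 0.20, adjusted p = 0.0126) for Dennd4a, an activator of Rab GTPases, which changed by 1.10 in cko and -0.17 in dbko. Tbc1d15, an inactivator of Rab GTPases, differed by -1.18 (SE 0.20, adjusted p = 0.0181), with a change of 0.35 in cko and -0.83 in dbko. E330009J07Rik, a gene without an assigned name, differed by -1.14 (SE 0.18, adjusted p = 0.0126), with a change of 1.45 in cko and 0.32 in dbko. The difference was 0.82 (SE 0.17, adjusted p = 0.0488) for Ahr, the aryl hydrocarbon receptor, which changed by -0.44 in cko and 0.38 in dbko. Plau, the urokinase protease, differed by 2.19 (SE 0.42, adjusted p = 0.0314), with a change of -0.49 in cko and 1.70 in dbko. The calls in each genotype alone are given above, and a change quoted here is not by itself a called one.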

How the results depend on the processing

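Counts of called genes among the 150 moved most with single libraries and with the libraries in the fit, and no called direction reversed. Over 6hr in cko the falls (2) numbered 5 without a filter on low counts, 5 with only the groups compared and 0 to 1 with single libraries left out. Over 6hr in dbko the rises (83) numbered 54, and the falls (10) 2, with only the groups compared, and the falls 19 without dbko replicate 2 at both times. For dbko against cko at 6hr the higher genes (10) numbered 3 with only the groups compared, 4 to 15 with single libraries left out, and 20 and 19 without dbko replicate 1 and 2 at both times. The lower genes (42) numbered 8, 19 to 64, and 79 without dbko replicate 2 at both times. For dbko against cko at 0hr the higher genes (10) numbered 4 with only the groups compared, 2 to 18 with single libraries left out and 24 without dbko replicate 2 at both times. The lower genes (8) numbered 31 without a filter, 15 with DESeq2, 5 with only the groups compared, 3 to 23 with single libraries left out, and 14 and 46 without dbko replicate 1 and 2 at both times. For the difference of the 6hr changes the higher genes (2) numbered 5 without a filter, 1 with the replicate block, 0 with only the groups compared, 0 to 5 with single libraries left out and 11 without dbko replicate 2 at both times. The lower genes (9) numbered 28, 15 with DESeq2, 0, 0 to 32, and 15 and 44 without dbko replicate 1 and 2 at both times. Shares of all tested genes are not given for these alternatives. Whether the shifts are particular to the 150 genes can therefore not be read from them. The causes of these shifts were not tested. The replicate block moved no other count by over 1.5 times, and Ccr9 in dbko against cko at 0hr lost its call under it (adjusted p = 0.0554, edgeR). Of 106 calls of named genes, 52 held under every alternative run. Losses given above for single genes are mostly those by left-out libraries. Further calls were lost with only the compared groups in the fit. Among them were the dbko changes over 6hr of Nfkbid (adjusted p = 0.191, edgeR) and Itgb3 (adjusted p = 0.178, edgeR). With 2 libraries a group and differing dbko replicates, changes under 2-fold may be missed at this depth.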
